A study of Rattus norvegicus with 4 samples.

Results

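RNA-seq of the rat carotid body (CB), the small organ at the carotid artery fork whose glomus cells sense blood oxygen, was examined here for 8 genes of cholesterol synthesis and its control, Hmgcs1, Idi1, Fdft1, Sqle, Lss, Cyp51, Dhcr7 and Insig1. These genes were taken by symbol, with no threshold on their values, and all 8 were found once among the 32883 genes of the table and passed the filter on low counts that left 13843 genes. No receptor for cholesterol uptake is among the 8, and uptake genes are therefore described from a separate list. The libraries were made from Sprague Dawley rats of both sexes, with no treatment named, and comprised 2 from neonates (day 5) and 2 from adults (day 21). Each library holds CBs pooled from several animals (6 pups or 3 adults per library in the design text, while the methods give larger pools and more replicates), so a library averages over animals and over all cell types of the organ.

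Cells build cholesterol from acetyl-CoA through mevalonate, isoprenoid units and squalene, which is closed into lanosterol and then trimmed to cholesterol by reductases, demethylases and isomerases. Most genes of this route are switched on together by SREBP-2, a membrane-bound transcription factor that Scap carries to the Golgi for cleavage when sterols are scarce and that Insig proteins hold back when sterols are plentiful. Synthesis therefore usually falls as the sterol content of the cell rises. In nerve-rich tissue, myelin is a large consumer of newly made cholesterol.

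Total counts ran from 36286191 to 39476110 per library, and 3 counts, taken as the floor, corresponded to 0.0760 to 0.0827 CPM (counts scaled to a fixed library total), which covers counting error only. Values are given as CPM after TMM scaling, called normalised CPM, except where CPM over the library total are named. Mitochondrially encoded transcripts took 15.6% to 18.7% of the counts in neonates and 9.06% to 9.08% in adults, and the TMM factors were 0.902 and 0.935 in neonates against 1.08 and 1.10 in adults. A log2 fold change is that of neonates over adults, with negative values for a lower level in neonates. All 7 glomus cell markers listed were tested, 3 higher in neonates (Slc18a1, Chga and Cox4i2) and 2 lower (Th and Epas1), and their summed level overlapped between the ages at 6220 and 7478 normalised CPM in neonates and 6760 and 8630 in adults. Neonate replicate 1 stood apart from neonate replicate 2 by its parathyroid markers (summed 1792 against 211 normalised CPM, and 0.0245 to 0.0503 in adults) and its myelin markers (1067 against 2459 normalised CPM). Chga, counted above as a glomus marker and in the summed level, had 1725 normalised CPM in neonate replicate 1 and 793 in neonate replicate 2. In adults it had 786 and 661, and the part of parathyroid RNA in its level was not tested.

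The 8 genes differed little between the ages. Tested with edgeR (quasi-likelihood, p-values adjusted by Benjamini-Hochberg across the genes tested), 4 of them passed an adjusted p of 0.05, where 62.3% of all genes tested did. Insig1, Cyp51 and Hmgcs1 were lower in neonates and Dhcr7 was higher, against 31.1% of all genes lower and 31.2% higher. None of the 8 reached a 2-fold change together with that adjusted p, which 20.8% of all genes did. The median log2 fold change of the 8 was -0.16, beside -0.0029 over all genes tested, and single genes ran from -0.46 to 0.45. In 5 of the 8 genes the libraries of the ages did not overlap, 4 with both neonates below and 1 with both above, and 83.0% of all genes tested had no overlap. Without neonate replicate 2 the median of the 8 was -0.051, and without adult replicate 2 it was -0.18, beside 0.00098 and -0.00042 over all genes.

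**Figure D1:**
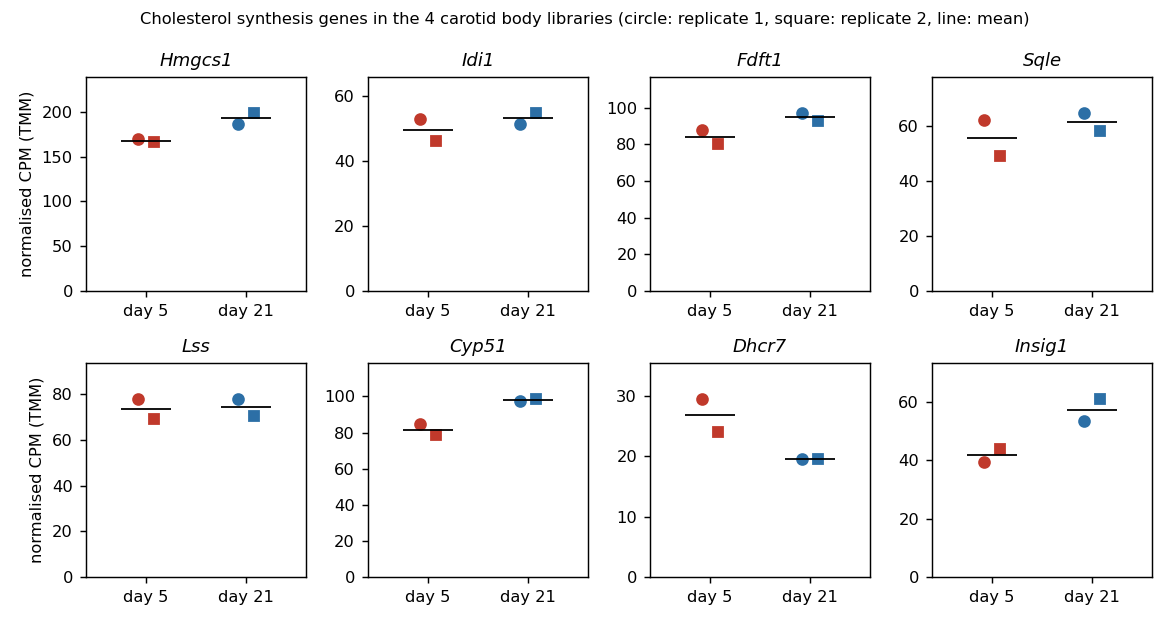
Normalised CPM (y axis, from 0) of the 8 genes in each library by age (x axis), with circles for replicate 1, squares for replicate 2 and lines for the mean of an age. Adults lie above neonates in Hmgcs1, Fdft1, Cyp51 and Insig1 and below them in Dhcr7, while Idi1, Sqle and Lss overlap.

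In the stretch from acetyl-CoA to squalene, Hmgcs1 (ENSRNOG00000016552) encodes the synthase that joins acetyl-CoA to acetoacetyl-CoA before mevalonate is made. It had 169 and 166 normalised CPM in the neonatal libraries and 186 and 199 in the adult libraries. Both neonates lay below both adults, by a margin that was small next to the level itself. The log2 fold change was -0.20 (standard error 0.076, adjusted p = 0.045 in edgeR's test). It did not pass with TMM computed without ribosomal protein and mitochondrially encoded genes (adjusted p = 0.051). Nor did it pass without neonate replicate 1 (-0.21), neonate replicate 2 (-0.18) or adult replicate 2 (-0.15). Idi1 (ENSRNOG00000016690), the isomerase that makes the reactive isoprenoid unit, had 52.9 and 46.2 normalised CPM in neonates and 51.4 and 54.8 in adults. The ages overlapped, and the log2 fold change was -0.10 (standard error 0.10, adjusted p = 0.41) and a 95% interval from -0.33 to 0.13. Fdft1 (ENSRNOG00000021314), squalene synthase, commits isoprenoids to sterols. Its normalised CPM were 87.7 and 79.8 in neonates and 97.1 and 92.5 in adults, without overlap. That difference missed the threshold, the log2 fold change being -0.18 (standard error 0.084, adjusted p = 0.090).

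Sqle (ENSRNOG00000009550) encodes squalene epoxidase, an oxygen-requiring enzyme and a second control point of the route. It had 62.3 and 48.9 normalised CPM in neonates and 64.8 and 58.2 in adults. The neonatal libraries were farther apart from each other than the means of the ages. The log2 difference was -0.14 (standard error 0.12, adjusted p = 0.33), with a 95% interval from -0.43 to 0.14, and -0.33 without neonate replicate 1 (adjusted p = 0.027). Lss (ENSRNOG00000054549), lanosterol synthase, closes the ring system. At 78.0 and 69.0 normalised CPM in neonates and 77.9 and 70.5 in adults, it was the most even of the 8 genes. Its log2 fold change was -0.014 (standard error 0.096, adjusted p = 0.91), and the 95% interval, -0.23 to 0.20, leaves out changes of the size seen for Insig1 or Dhcr7.

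Beyond lanosterol the 2 members went opposite ways. Cyp51 (ENSRNOG00000007234), the cytochrome P450 that removes a methyl group from lanosterol and also uses oxygen, had 84.6 and 78.4 normalised CPM in neonates and 97.4 and 98.7 in adults. All neonatal values lay below all adult values, and the log2 fold change was -0.27 (standard error 0.080, adjusted p = 0.017), and it did not pass without neonate replicate 2 (adjusted p = 0.10) or adult replicate 2 (adjusted p = 0.068). Dhcr7 (ENSRNOG00000020776), the reductase that yields cholesterol in one arm of the route, had 29.5 and 24.0 normalised CPM in neonates against 19.6 and 19.6 in adults. It was higher in both neonatal libraries, by 1.37-fold (log2 fold change 0.45, standard error 0.12, adjusted p = 0.011). Without neonate replicate 1, where its level was higher, the log2 fold change was 0.30 and the adjusted p was 0.085.

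Insig1 (ENSRNOG00000006859) encodes the endoplasmic reticulum protein that retains the Scap complex and is itself raised by SREBP. It had 39.5 and 44.1 normalised CPM in neonates and 53.4 and 61.2 in adults. Neonates were lower in both libraries, and adults were 1.37-fold higher, the largest difference toward adults among the 8 genes. The log2 fold change was -0.46 (standard error 0.11, adjusted p = 0.0050), and -0.35 without adult replicate 2 (adjusted p = 0.057). One adult library has a fractional estimated count of Insig1, the only one among the 8 genes.

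**Figure D2:**
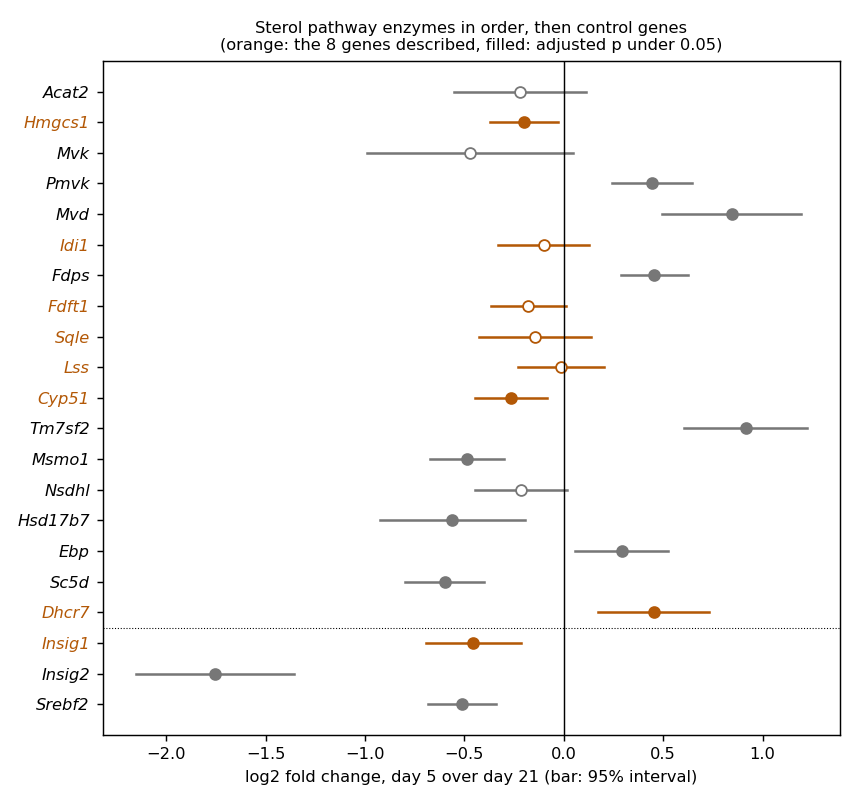
Log2 fold change of neonates over adults (x axis, bars for the 95% interval) for sterol enzymes in pathway order from top to bottom, then Insig1, Insig2 and Srebf2, with filled dots for an adjusted p under 0.05 and orange for the 8 genes. Lss sits at -0.014 while Insig2 (-1.76) lies far to the left and Tm7sf2 (0.91) to the right.

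Replicates of an age differed in some of these genes and were close in others. Between the adult libraries, the log2 level of replicate 1 minus that of replicate 2 ran from -0.20 (Insig1) to 0.16 (Sqle). Of the 8, 7 had a higher log2 level in neonate replicate 1 than in neonate replicate 2, Sqle by 0.35, Dhcr7 by 0.30 and Idi1 by 0.20, with Insig1 the other way at -0.16. In 3 of the 8 genes, Idi1, Sqle and Lss, this difference between neonatal libraries exceeded the log2 fold change between ages. These counts were not taken over all genes and so cannot be called particular to the 8. Neonate replicate 1 is also the library with more parathyroid and less myelin RNA, and the part of either in the differences between neonatal libraries was not tested. In bulk RNA, fewer cells of a type and less RNA per cell cannot be told apart.

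Scaling set how many of the genes differed. In CPM over the library total, 7 of the 8 genes had both neonates below both adults, a count not taken over all genes in this scaling. All of these 7 were lower at an adjusted p under 0.05 when edgeR used library size alone, as were 5997 of all 13843 genes tested. Dhcr7 did not pass (log2 fold change 0.20, adjusted p = 0.16). Lss then averaged 67.2 CPM in neonates and 80.5 in adults (log2 fold change -0.26, adjusted p = 0.037), and Idi1 45.3 and 57.7 (-0.35, adjusted p = 0.015). Library size alone moved the median of all genes tested to -0.25 and split the called genes into 2587 higher and 5997 lower in neonates, in place of 4325 and 4300. The median of the 8 genes moved with it, from -0.16 to -0.41, and its distance from the median of all genes was -0.16 under both scalings.

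**Figure D3:**
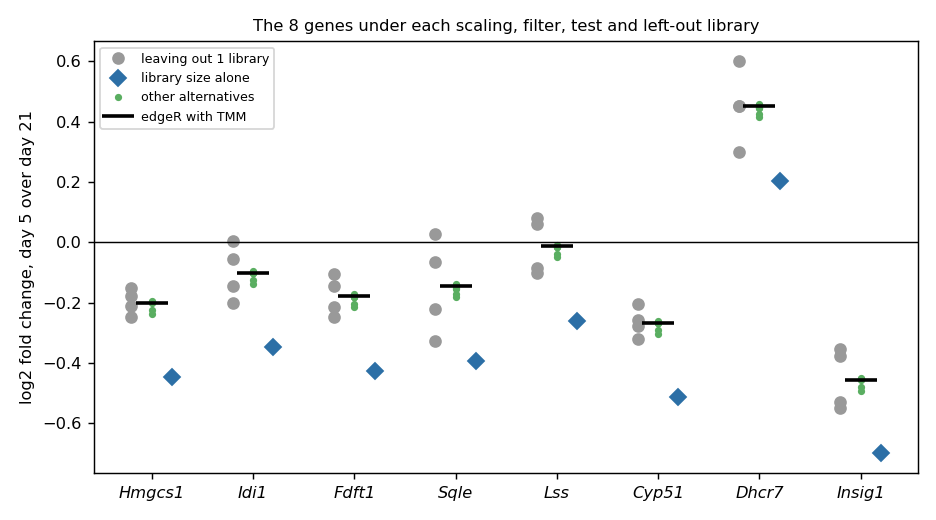
Log2 fold change of neonates over adults (y axis) for each of the 8 genes, with a bar for edgeR with TMM, grey dots for fits that leave out 1 library, blue diamonds for library size alone and green dots for the other alternatives. The diamonds lie below the bars in all 8 genes, and Dhcr7 alone stays above 0 in every fit.

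Ratios of counts within a library do not depend on scaling. Per count of Cyp51, the Dhcr7 counts were 0.349 and 0.306 in neonates and 0.201 and 0.198 in adults. There were 8.76 and 9.77 Insig1 counts per count of Insig2, its paralog, in neonates and 3.62 and 3.90 in adults. The ages did not overlap in these ratios, which restate the fold changes of the single genes and have no share over other gene pairs beside them. The ratios are given as a description, with no test.

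Promoter sequences of the 4 genes that passed the test are shown because SREBP targets typically carry a sterol regulatory element beside sites for NF-Y and Sp1, and because Hmgcs1, Cyp51 and Insig1 moved one way and Dhcr7 the other. They run from 250 bases before to 50 bases after a start annotated by RefSeq in GRCr8, another assembly than that of the counts, and 6 of the 8 genes matched a window. Windows lie at chr2:53382054-53382353, plus strand, for Hmgcs1, at chr4:30991443-30991742, plus strand, for Cyp51, at chr4:8057720-8058019, minus strand, for Insig1 and at chr1:208444184-208444483, plus strand, for Dhcr7. Each is written 5′ to 3′ along the gene, with matches to CCAAT (the NF-Y motif) and GGGCGG (the Sp1 motif) on either strand in capitals.
Hmgcs1: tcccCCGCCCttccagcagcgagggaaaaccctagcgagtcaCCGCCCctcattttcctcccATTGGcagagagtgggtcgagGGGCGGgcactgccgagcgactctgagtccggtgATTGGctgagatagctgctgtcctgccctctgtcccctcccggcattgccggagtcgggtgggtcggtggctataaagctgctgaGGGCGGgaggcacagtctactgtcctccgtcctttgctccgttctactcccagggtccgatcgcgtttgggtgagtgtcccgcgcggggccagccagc
Cyp51: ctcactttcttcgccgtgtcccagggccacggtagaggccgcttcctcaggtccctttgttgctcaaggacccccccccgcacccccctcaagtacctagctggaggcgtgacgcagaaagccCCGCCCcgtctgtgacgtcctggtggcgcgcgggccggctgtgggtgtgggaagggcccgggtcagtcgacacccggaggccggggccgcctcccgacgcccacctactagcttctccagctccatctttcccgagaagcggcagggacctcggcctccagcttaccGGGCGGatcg
Insig1: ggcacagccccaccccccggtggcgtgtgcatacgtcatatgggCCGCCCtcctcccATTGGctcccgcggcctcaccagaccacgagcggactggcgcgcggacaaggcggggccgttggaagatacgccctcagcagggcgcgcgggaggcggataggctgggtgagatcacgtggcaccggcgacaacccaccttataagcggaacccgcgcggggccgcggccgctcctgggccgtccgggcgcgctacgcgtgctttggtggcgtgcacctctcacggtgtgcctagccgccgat
Dhcr7: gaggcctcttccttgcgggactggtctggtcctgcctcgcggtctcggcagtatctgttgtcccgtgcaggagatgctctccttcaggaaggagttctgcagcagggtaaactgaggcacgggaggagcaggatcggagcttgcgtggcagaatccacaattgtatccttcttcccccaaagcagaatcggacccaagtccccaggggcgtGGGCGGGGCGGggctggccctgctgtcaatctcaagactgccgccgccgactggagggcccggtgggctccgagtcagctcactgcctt

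On either strand, CCAAT was found in 4 of the 6 windows (Hmgcs1, Idi1, Lss and Insig1) and in 37.5% of all 33469 windows of the table. GGGCGG was found in 5 of the 6, all but Idi1, and in 33.1% of all windows. Cyp51 and Dhcr7, which moved in opposite directions, both had GGGCGG and no CCAAT. TCACNCCA and CACCCCAC, cores of the sterol regulatory element that overlap each other, were in none of the 6 windows and in 3.89% and 2.70% of all windows, and TCACGTGA, an E-box that SREBP also binds, was in none and in 0.777%. A match is only a run of letters, and these letters missing from a window say nothing about SREBP at the gene.

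**Figure D4:**
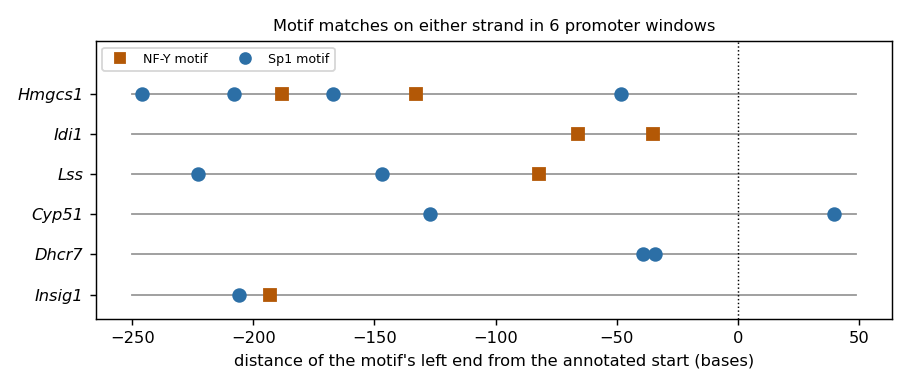
Distance of each motif match from the annotated start (x axis, bases, left end of the match, both strands) in the promoter windows of 6 of the 8 genes, with squares for the NF-Y motif and circles for the Sp1 motif. Hmgcs1 has 2 squares and 4 circles, and Cyp51 and Dhcr7 have circles only.

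Of 14 other enzymes of the route listed, 13 were tested, 5 were higher in neonates, 4 were lower and 4 did not pass, with a median log2 fold change of -0.22. Higher in neonates were Tm7sf2, a sterol reductase (0.91), Mvd, the decarboxylase ahead of Idi1 (0.84), and Fdps, which builds the substrate of Fdft1 (0.46). Estimated counts of Tm7sf2 were fractional in every library. Lower in neonates were Sc5d, a desaturase directly ahead of Dhcr7 (-0.60), and Hsd17b7, a ketoreductase (-0.56, adjusted p = 0.11 without adult replicate 1). Library size alone left 3 higher and made 8 lower, beside 2587 higher and 5997 lower of all 13843 genes tested. In the branch that leads to non-sterol products, 5 genes were tested, among them Pdss1 (0.95) and Pdss2 (0.47), which make the side chain of ubiquinone, both higher in neonates, and Dhdds (-0.25), of dolichol synthesis, lower. Dhdds, at an adjusted p of 0.049, did not pass in DESeq2 (0.066) or with RLE scaling (0.052). Nor did it pass with TMM computed without ribosomal protein and mitochondrially encoded genes (0.054). The same held without neonate replicate 2 (log2 fold change -0.18) or either adult replicate. Pdss2 did not pass with library size alone (adjusted p = 0.19) or without neonate replicate 1 or either adult replicate (adjusted p from 0.054 to 0.079).

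Of the genes that control SREBP, 9 of 9 passed the test and were lower in neonates, as were 31.1% of all genes tested. The median log2 fold change of these 9 was -0.51. Srebf2, which encodes SREBP-2, had 119 and 120 normalised CPM in neonates and 176 and 164 in adults (log2 fold change -0.51, standard error 0.075, adjusted p = 0.00039). Srebf1, of the lipogenic SREBP-1, was at -0.64. Insig2 had 4.51 and 4.51 normalised CPM in neonates and 14.7 and 15.7 in adults (log2 fold change -1.76, standard error 0.18, adjusted p = 4.8e-05), so adults were 3.38-fold higher where they were 1.37-fold higher for Insig1. Mbtps1, the protease that makes the opening cut in SREBP, was at -0.90. Leaving out 1 library in turn gave medians of the 9 from -0.56 to -0.46, and not every such fit called all 9 lower. Library size alone left all 9 lower, where 5997 of all 13843 genes tested were then lower.

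**Figure D5:**
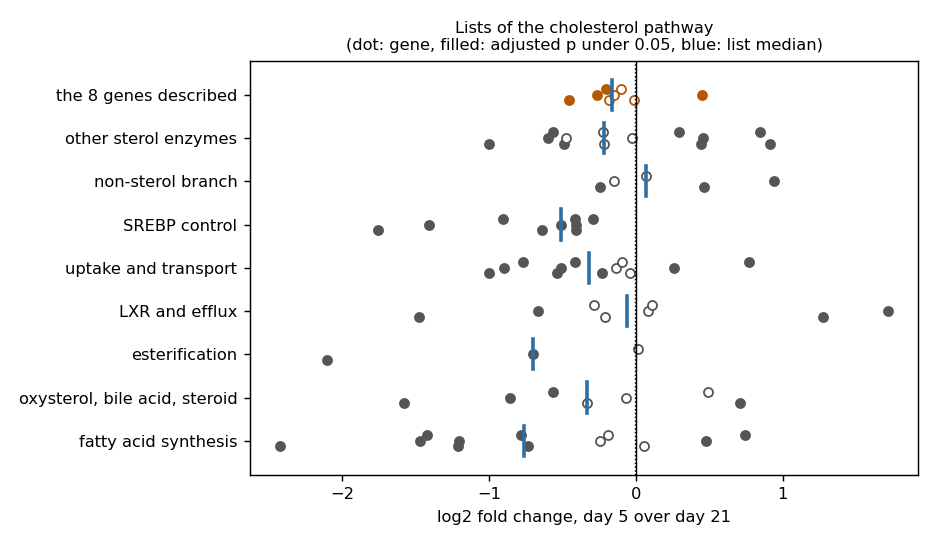
Log2 fold change of neonates over adults (x axis) for the genes of each list (rows), filled where the adjusted p was under 0.05, with blue bars for list medians and a dotted line for the median of all genes tested. The 8 genes sit between -0.46 and 0.45, while all 9 SREBP control genes lie left of 0 and fatty acid genes reach -2.42.

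In the list for uptake and transport inside the cell, 12 of 14 genes were tested, 7 were lower in neonates and 2 higher, with a median of -0.32. Of all genes tested, 31.1% were lower and 31.2% higher. Stard4, a carrier of cholesterol between membranes, was at -0.77, but at -1.22 without neonate replicate 1 and at -0.42 without neonate replicate 2 (adjusted p = 0.059), and it did not pass without adult replicate 2 either (adjusted p = 0.093). Lrp8, a lipoprotein receptor found on neurons, was higher at 0.77, and so was Stard3 at 0.26. Stard3 did not pass with library size alone (adjusted p = 0.90) or in DESeq2 (0.072). Nor did it pass without a filter on low counts (0.086) or with a mean of 5 CPM or more (0.075). The same held without neonate replicate 1 (log2 fold change 0.22) or either adult replicate. Without adult replicate 2 fewer of the list were called lower, as were fewer of all genes tested. The list median was then -0.28, beside -0.00042 over all genes. Npc1l1, the intestinal cholesterol transporter, had 0 counts in every library.

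Among storage and efflux genes, Soat1, which esterifies cholesterol for storage, had 3.58 and 3.12 normalised CPM in neonates and 13.5 and 15.3 in adults (log2 fold change -2.11, standard error 0.20, adjusted p = 3.6e-05), and Nceh1, which frees it again, was at -0.70. These were 2 of the 3 esterification genes tested. The shares of all genes tested, for this list and the next ones, were 31.1% lower and 31.2% higher. In the list of liver X receptors (LXR) and efflux, 2 of 8 were lower, Nr1h3, which encodes LXR alpha, at -1.48 and Apoe, a lipid carrier, at -0.67, and 2 were higher, Lcat, an enzyme that esterifies cholesterol on lipoproteins, at 1.28 and Apoa1 at 1.72 from a low level of 0.344 to 1.70 normalised CPM (1.39, adjusted p = 0.094, without adult replicate 1). The median of this list was -0.063, and without neonate replicate 2 it was -0.29, beside 0.00098 over all genes. More of the list were then called lower. Of 7 genes tested for oxysterol, bile acid and steroid synthesis, 3 were lower, Ch25h (-1.58), Cyp27a1 (-0.86) and Hsd3b7 (-0.56), and Cyp46a1, a neuronal hydroxylase, was higher (0.71), though not with library size alone (adjusted p = 0.12) or without neonate replicate 1 or either adult replicate (adjusted p from 0.057 to 0.16).

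Of the genes for fatty acid synthesis, which SREBP-1 favours, 7 of 12 tested were lower in neonates and 2 higher, beside 31.1% and 31.2% of all genes. Their median was -0.76, and the difference from cholesterol synthesis was not tested. Scd, a desaturase, had 12.4 and 14.9 normalised CPM in neonates and 75.8 and 70.3 in adults (log2 fold change -2.42, standard error 0.12, adjusted p = 1.8e-06). Its estimated counts were fractional in every library, as were those of its paralog Scd2 in all but neonate replicate 2. Scd2 was at -0.74, and the division of reads between these genes was not tested. Gpam (-1.47), of glycerolipid synthesis, and Fads2 (-1.42), a desaturase of polyunsaturated fatty acids, were lower as well. Me1 (0.75), a source of NADPH, and Acacb (0.48) were higher, Acacb neither with library size alone (adjusted p = 0.22) nor without adult replicate 1 (0.28, adjusted p = 0.14).

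Markers of other cells moved with age beside these lists, where 31.2% of all genes tested were higher in neonates and 31.1% lower. The summed level of 6 markers of dividing cells was 453 to 532 normalised CPM in neonates and 111 to 112 in adults, and 6 of 6 were higher in neonates. That of 5 adipocyte markers was 5.65 to 6.61 normalised CPM in neonates and 24.9 to 37.1 in adults, and all 3 that were tested were lower in neonates. That of 5 macrophage markers was 49.97 to 56.4 normalised CPM in neonates and 99.6 to 100.4 in adults, with 4 of 5 lower in neonates. Of 6 myelin markers, 1 was lower in neonates and 5 did not pass. Of 5 skeletal muscle markers, 1 was lower in neonates and Myh8 was at 0 counts. Of 5 adrenal cortex markers, 3 were in the table, Cyp17a1 at 0 counts, with a summed level of at most 1.52 normalised CPM. The part of these cells in the differences above was not tested.

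Genes whose profile over the 4 libraries came closest to the mean of the 8 were Ext2, Nagpa, Cep192, Slc43a3 and Rbl1, by the root mean square distance of centred log2 CPM. Distances ran from 0.0027 for Ext2 to 0.011 for Rbl1, over 4 libraries. That mean profile stood at 0.013 in neonate replicate 1, -0.13 in neonate replicate 2 and 0.056 and 0.060 in the adult libraries. Log2 fold changes of the genes so found ran from -0.13 to -0.11, which follows from how they were picked. None passed edgeR's test (adjusted p from 0.25 to 0.68). The mean also averages genes of opposite change, such as Insig1 (-0.46) and Dhcr7 (0.45).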

How the data were processed

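RNA of pooled carotid bodies was sequenced after poly A+ selection, with 2 libraries per age grouped by their labels. The authors trimmed reads, ran STAR and Salmon (1.5.2 in the processing notes) on the rat assembly Rnor_6.0, and deposited estimated counts per gene, not normalized. After rounding, the counts were tested with edgeR 4.0.16, DESeq2 1.42.0 or limma 3.58.1 (R 4.3.3) and tabulated with pandas 2.3.3.

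Removed were 664 genes of other biotypes, as looked up by gene name in a RefSeq table of GRCr8. A gene entered the test when 2 or more libraries reached 1 CPM. Ages were compared by TMM and edgeR's quasi-likelihood test without covariates, and a gene was called at a Benjamini-Hochberg adjusted p under 0.05. Standard errors are the log2 fold change over the square root of the F statistic. The procedure was tested on simulated data.

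The 8 genes, the lists and the motifs were chosen with earlier results of these data known. Named from each list were the 3 called genes with the largest change in each direction, and Srebf2, Insig2 and Srebf1 in any case, plus the 5 closest profiles. Some genes that this rule picks are not reported here. Npc1l1, Myh8, Cyp17a1 and 5 glomus markers were named after their values were seen. Levels were not compared between genes, since transcript lengths were not used here. The titles call the libraries biological replicates without saying which animals or litters they hold, so p-values measure the spread between these pools.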

Additional observations from a re-analysis of the deposited data

How the results depend on the processing

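Another tool (limma-voom or DESeq2), another scaling (library size alone, RLE, or TMM computed without ribosomal protein and mitochondrially encoded genes), another choice of genes (unfiltered, a mean of 5 CPM or more, every biotype), a replicate block and the omission of each library in turn were tried. In fits on all 4 libraries, the count of 4 genes of the 8 became 7 with library size alone, where 62.0% of all genes tested passed. The median log2 fold change of the 8 was then -0.41 in place of -0.16. With a mean of 5 CPM or more the count was 5, where 65.4% of all genes tested passed. It was 3 with TMM computed without ribosomal protein and mitochondrially encoded genes, where 62.5% passed. Some fits that left out 1 library, and so held 1 library of an age, called fewer of the 8. Leaving out 1 library gave medians of the 8 from -0.23 to -0.051, while those of all genes ran from -0.0052 to 0.0019. With a mean of 5 CPM or more, which tests fewer genes, 1823 genes in all were called at 2-fold, in place of 2885. Over the 13 alternatives, Insig1 passed in 12 (adjusted p up to 0.057), Cyp51 in 11 (up to 0.10), Dhcr7 in 11 (up to 0.16) and Hmgcs1 in 9 (up to 0.20). Fdft1 passed in 2, Sqle in 2, Idi1 in 1 and Lss in 1. Signs of Hmgcs1, Fdft1, Cyp51, Dhcr7 and Insig1 held in all 13. Idi1 and Sqle turned positive without neonate replicate 2 and Lss without that library and without adult replicate 1, at values that did not pass. Of the other 35 genes the rule picks, 29 of 451 fits lost a call and 1 gained one.

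Labels give no reason to pair equal replicate numbers, and deviations of equally numbered libraries correlated at -0.015. With the replicate block, 4 of the 8 and 9093 of all genes passed, in place of 8625, and the median of the 8 was -0.17. The cause of none of these changes was tested. Between the neonatal libraries the chi-square of counts over its degrees of freedom was 36.8, and 17.1 between the adult libraries, so the spread between pools exceeded counting error, and it was estimated from 2 libraries per age.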
